A study of Mus musculus with 64 samples.

Results

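The A/J hippocampus was compared with the hippocampus of the 7 other founder strains. A/J is an albino inbred laboratory strain, and its 8 libraries, 4 from females and 4 from males, were taken by the strain label out of 64 libraries in all. The other 56 libraries came from 4 females and 4 males each of C57BL/6J, 129S1/SvImJ, NOD/ShiLtJ, NZO/HlLtJ, CAST/EiJ, PWK/PhJ and WSB/EiJ. The labels give strain, sex and tissue for each group, and no treatment, transgene or age. Bulk RNA was sequenced from total hippocampal RNA, and the authors counted reads per gene. In the main comparison A/J was set against the mean of the other 7 strains, with every strain given the same weight and females and males balanced.

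The hippocampus is a cortical structure made of the CA fields and the dentate gyrus, and its excitatory neurons lie among interneurons, astrocytes, oligodendrocytes, microglia and vessels. A/J mice are known as background for an insertion in Dysf, the gene of the membrane repair protein dysferlin, for a duplication that spans Glo1, and for inherited differences in pigment, complement and hearing genes. An inbred strain is close to genetically uniform, so that a difference between strains holds every allele that separates them, and the effect of 1 locus cannot be told apart from the rest of the genome.

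The 64 libraries held 16607602 to 27759221 counts, and the 8 A/J libraries held 19047744 to 26083337. Of 32227 genes in the table, 17382 had enough counts to be tested. The Y-linked genes and Xist were on the side that the sex label gives in every A/J library. The library A/J male 2 stood apart: its median Spearman correlation with the other A/J males was 0.9845, against 0.99215 to 0.99285 for the other 3, and its nearest library was 129S1/SvImJ female 1. All 12 dentate granule markers, all 12 CA2 and CA3 markers and the 11 CA1 markers in the table had enough counts to be tested. All 12 choroid plexus markers and all 10 striatal markers did too, so that this does not check the hippocampus label. A/J female 3 stood apart in a few hypothalamic peptide genes, described with the sexes below.

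In A/J hippocampus 377 genes rose and 246 fell by at least 2-fold relative to the mean of the other strains. These are 2.17% and 1.42% of the genes tested by edgeR's quasi-likelihood test at a Benjamini-Hochberg adjusted p under 0.05 with an absolute log2 fold change of at least 1. All 623 differences had the same sign in females as in males, but they were chosen on the mean of both sexes, which favours this. Small differences were more common, and at any fold 3327 genes (19.1%) were higher and 2562 (14.7%) lower in A/J. The median log2 fold change over all genes tested was 0.01. Protein-coding genes made up 54.9% of the genes that rose and 71.1% of those that fell, against 88.9% of all genes tested. Set against single strains with the same thresholds, A/J differed at 746 genes (4.29%) from C57BL/6J, 700 (4.03%) from 129S1/SvImJ, 661 (3.8%) from NOD/ShiLtJ and 772 (4.44%) from NZO/HlLtJ. Against the wild-derived strains it differed at 1003 genes (5.77%) from WSB/EiJ, 1958 (11.3%) from CAST/EiJ and 1963 (11.3%) from PWK/PhJ. These comparisons share the 8 A/J libraries and are not independent of each other.

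For most of the changed genes at least 1 other strain lay on the A/J side of a midpoint. For each gene a strain was counted there when its mean log2 level lay past the midpoint between the mean of the others and A/J. A strain on that side need not have a level near that of A/J. The A/J mean was the outermost of the 8 strains for 41.1% of the genes that rose and 63.8% of those that fell. No other strain lay on the A/J side for 26 of the 377 genes that rose (6.9%) and for 28 of the 246 that fell (11.4%). Of the genes that rose, NZO/HlLtJ shared the A/J side at 47.5%, NOD/ShiLtJ at 45.9% and C57BL/6J at 43.2%, and CAST/EiJ and PWK/PhJ at 15.1% and 15.4%. The strains were closer together for the genes that fell, with shares between 22% for CAST/EiJ and 34.1% for C57BL/6J. With CAST/EiJ and PWK/PhJ left out of the mean of the others, 250 genes rose and 242 fell.

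In 13 genes that rose (0.0748% of genes tested) every A/J library lay above all 56 others, and in 14 that fell (0.0805%) every A/J library lay below them. Without regard to the test, such a gap was seen above the others for 18 genes (0.104%) and below them for 21 (0.121%). Of the genes with a gap, 9 that rose and 9 that fell are named protein-coding genes, and these are described first. They code for a membrane-bending adaptor, a transporter, a glyoxalase, a dynein chain, a lens crystallin, collagens, a Nodal antagonist, an endoplasmic reticulum reductase and cell adhesion proteins.

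The promoters of 3 genes are shown because they belong to Baiap2l1, which has the largest difference among the named protein-coding genes with a gap, and to the adjacent pair Glo1 and Dnah8, both of which rose in A/J. Each run is the 250 bases before the annotated start in the RefSeq promoter table for build GRCm38.p6, a C57BL/6J reference and not a sequence read from A/J. Coordinates and strand are chr5:144358113-144358362 (minus) for Baiap2l1, chr17:30612660-30612909 (minus) for Glo1 and chr17:30626686-30626935 (plus) for Dnah8. Capitals mark the CCAAT box and the GC box GGGCGG read on either strand.
Baiap2l1: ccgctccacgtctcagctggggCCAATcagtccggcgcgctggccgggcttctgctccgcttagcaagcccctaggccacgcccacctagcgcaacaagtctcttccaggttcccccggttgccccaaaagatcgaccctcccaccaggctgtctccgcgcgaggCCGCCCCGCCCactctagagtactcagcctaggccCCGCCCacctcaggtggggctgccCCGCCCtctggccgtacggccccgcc
Glo1: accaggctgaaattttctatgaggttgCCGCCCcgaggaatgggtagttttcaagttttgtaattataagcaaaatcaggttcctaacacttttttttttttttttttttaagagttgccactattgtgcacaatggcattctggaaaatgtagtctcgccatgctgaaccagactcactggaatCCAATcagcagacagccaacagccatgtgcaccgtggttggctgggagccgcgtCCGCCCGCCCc
Dnah8: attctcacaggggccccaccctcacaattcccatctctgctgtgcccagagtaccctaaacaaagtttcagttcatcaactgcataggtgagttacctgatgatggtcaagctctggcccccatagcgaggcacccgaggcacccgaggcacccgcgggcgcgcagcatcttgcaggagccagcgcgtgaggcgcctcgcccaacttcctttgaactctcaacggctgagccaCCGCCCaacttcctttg
The Baiap2l1 promoter held 1 CCAAT and 4 GGGCGG matches, of which 1 overlapped another, at 70.4% GC with 21 CpG dinucleotides. The Glo1 promoter held 1 CCAAT and 3 GGGCGG matches, of which 1 overlapped another, at 46.4% GC with 8 CpG. The Dnah8 promoter held 1 GGGCGG match and no CCAAT, at 59.2% GC with 13 CpG. Of 27025 promoters of this length in the table, 34.5% held CCAAT and 32.9% held GGGCGG on either strand, and the median CpG count was 6. No expression value bears on these motifs directly, and any difference between the strains in these windows was not analysed here.

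Baiap2l1, an adaptor of the I-BAR family that links membranes to actin, had the largest difference of any named protein-coding gene with a gap. Its levels were 33.6, 31.8, 28.5 and 47.6 CPM, counts of the gene scaled to a common library size, in the 4 A/J females and 33.2, 45.1, 41.8 and 27.8 CPM in the 4 A/J males, against 0.191 to 4.98 CPM with a median of 1.01 in the other strains. All A/J libraries lay far above the highest other library, and no other strain's mean passed 1.74 CPM. The log2 fold change was 4.80 ± 0.20 (SE) with an adjusted p of 1.04e-25 by edgeR's quasi-likelihood test. The other tested members of its family, 4 of 5, did not pass the 2-fold threshold.

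**Figure D1:**
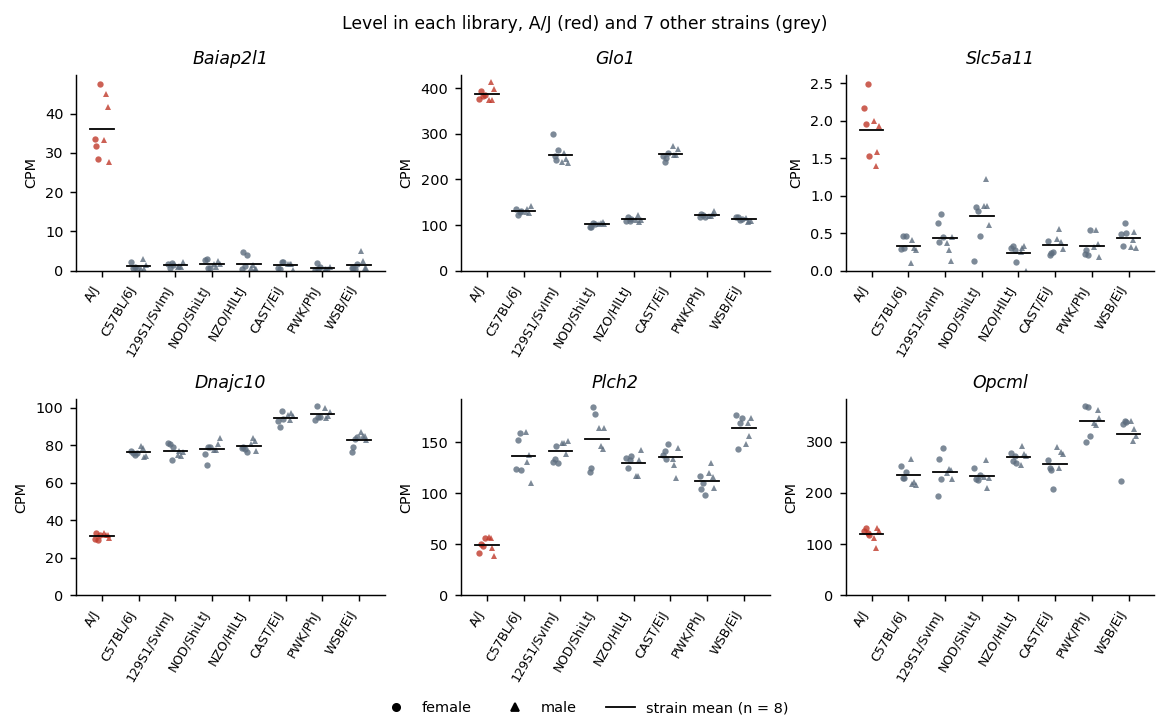
Level (TMM-scaled CPM, linear axis from 0) of Baiap2l1, Glo1, Slc5a11, Dnajc10, Plch2 and Opcml in every library, by strain with A/J in red on the left; circles are females, triangles males and bars the strain means (n = 8). In Baiap2l1 the A/J libraries sit between 27.8 and 47.6 CPM and all others at 4.98 CPM or lower, and in Dnajc10 the A/J libraries sit at 33.2 CPM or lower and all others at 69.6 CPM or higher.

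Glo1, which codes for glyoxalase 1, the enzyme that clears methylglyoxal, had 374 to 414 CPM in A/J with a mean of 387 ± 13.8 (SD, n = 8), against 95.5 to 300 CPM with a median of 122 in the others. The A/J libraries lay above all others, but 129S1/SvImJ (254 ± 21.2 CPM, n = 8) and CAST/EiJ (255 ± 11.0 CPM, n = 8) lay well above NOD/ShiLtJ (102 ± 3.71 CPM, n = 8). The log2 fold change was 1.42 ± 0.02 (SE), adjusted p = 2.6e-48 in edgeR. Dnah8, an axonemal dynein heavy chain next to Glo1 on chromosome 17, had 4.69 to 6.85 CPM in A/J against 0.482 to 3.57 CPM in the others. Its log2 fold change was 1.89 ± 0.09 (SE).

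The other named genes above all other libraries were expressed at low levels. Slc5a11, a sodium-coupled myo-inositol transporter, had 1.39 to 2.49 CPM in A/J, against 0 to 1.22 CPM in the others, a log2 fold change of 2.29 ± 0.16 (SE). Zfp459, a zinc finger protein gene, had 3.74 ± 0.39 CPM (SD, n = 8) in A/J and 0.934 ± 0.376 CPM (n = 56) in the others. Col2a1, the type II collagen of cartilage, had 1.78 ± 0.139 CPM in A/J and 0.538 ± 0.333 CPM in the others. Crybb1, a lens crystallin, had 5.09 ± 0.958 CPM in A/J and 1.64 ± 0.873 CPM in the others. Its highest A/J value, 7.24 CPM, was that of A/J male 2. Tmprss7, a membrane-bound serine protease, had 1.58 ± 0.303 CPM in A/J and 0.591 ± 0.196 CPM in the others. Ttc12, a neighbour of the dopamine receptor gene Drd2, had 6.41 ± 0.757 CPM in A/J and 2.79 ± 0.717 CPM in the others. The log2 fold changes of these last 5 genes ran between 1.23 and 2.05.

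Among the named genes below all other libraries, Dnajc10 had the tightest values. It codes for an endoplasmic reticulum disulfide reductase, and had 29.5 to 33.2 CPM in A/J, against 69.6 to 101 CPM with a median of 80.6 in the others. The highest A/J library was below the lowest of the others, and the log2 fold change was -1.39 ± 0.03 (SE), adjusted p = 3.74e-45 in edgeR. Plch2, a neuronal phospholipase C of the eta class, had 38.4 to 57.5 CPM in A/J, against 98.8 to 185 CPM in the others, a log2 fold change of -1.48 ± 0.07 (SE). Opcml, a GPI-anchored adhesion protein of the IgLON family, had 92.7 to 131 CPM in A/J, against 195 to 369 CPM in the others, a log2 fold change of -1.16 ± 0.06 (SE). These 3 genes are expressed well in hippocampus in every strain, so that their gap does not rest on few counts.

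Dysf, the dysferlin gene, had 0.947 to 1.58 CPM in A/J, against 1.92 to 5.27 CPM with a median of 2.94 in the others. All 8 A/J libraries were lower than every other library, with a log2 fold change of -1.28 ± 0.08 (SE) and an adjusted p of 2.04e-19 in edgeR. Col4a6, an X-linked basement membrane collagen, had 0.122 ± 0.125 CPM (SD, n = 8) in A/J and 1.43 ± 0.434 CPM (n = 56) in the others. Dap, a death-associated protein gene, had 3.21 ± 0.28 CPM in A/J and 6.71 ± 1.74 CPM in the others. Its log2 fold change of -1.03 became -0.92 without CAST/EiJ and PWK/PhJ, which is under the fold threshold.

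Both Lefty genes, which code for secreted antagonists of Nodal signalling, fell in A/J. Lefty2 had 0 to 0.268 CPM in A/J, against 0.492 to 18.9 CPM with a median of 1.39 in the others. The A/J libraries lay below all others, and the highest strain was PWK/PhJ at 16.6 ± 1.51 CPM (SD, n = 8). Lefty1 had 0.0622 ± 0.0355 CPM in A/J and 7.11 ± 5.73 CPM in the others, but NZO/HlLtJ (0.0511 CPM) and PWK/PhJ (0.225 CPM) were also near 0. The log2 fold changes were -4.21 ± 0.25 (SE) for Lefty2 and -5.26 ± 0.62 (SE) for Lefty1, with adjusted p of 2.05e-21 and 7.26e-10 in edgeR. The log2 fold change of Lefty1 was -5.06 when NZO/HlLtJ female 3 was left out, close to the value with it, but the adjusted p was then 1. By these counts PWK/PhJ was high in Lefty2 and near 0 in Lefty1, and A/J was near 0 in both. Of the 50-base words of the Lefty1 transcript 17.9% also occur in Lefty2, and 11.6% of those of Lefty2 occur in Lefty1. How reads that match both genes were counted is not given in the sources used here, so that the contrast between them is less certain.

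2 more genes with a gap share sequence with copies, and their counts are uncertain for that reason. Pcdhga11, a gamma protocadherin, had 2.55 to 5.08 CPM in A/J, against 13.4 to 53.5 CPM with a median of 32.5 in the others, a log2 fold change of -2.98 ± 0.11 (SE). Of its transcript's 50-base words, 44.1% also occur in another gene, mostly other gamma protocadherins that share its last exons. Ccl27a, a chemokine that attracts T cells to skin, had 4.78 to 9.39 CPM in A/J, against 18.7 to 40.7 CPM in the others, a log2 fold change of -2.01 ± 0.08 (SE), and 69.2% of its words occur in copies such as Gm20878. How the counting treated reads that match several genes is not given in the sources used here.

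The largest differences outside this set were shared with other strains, so that the libraries overlapped. Spink10, a serine protease inhibitor gene, had 11.7 ± 1.19 CPM (SD, n = 8) in A/J and 3.39 ± 3.31 CPM (n = 56) in the others, a log2 fold change of 3.06. NOD/ShiLtJ was close to A/J at 9.54 CPM, and CAST/EiJ and PWK/PhJ had 0.0901 and 0.109 CPM. Thbs4, a thrombospondin that promotes synapse formation, rose by 2.08 on the log2 scale, and CAST/EiJ lay on the A/J side. Olfr1388, an olfactory receptor gene, had 7.88 ± 1.38 CPM in A/J and 2.36 ± 1.38 CPM in the others. Gbp4, an interferon-induced GTPase, had 5.26 ± 2.94 CPM in A/J and 1.10 ± 0.619 CPM in the others, and its highest value, 11.8 CPM, was that of A/J female 1.

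Another 5 genes of this kind have near copies, and their levels are uncertain. Tpm3-rs7, a tropomyosin 3 copy, had 0.554 CPM in A/J and 43.7 CPM in the others, with C57BL/6J (0.515 CPM) and 129S1/SvImJ (0.527 CPM) at the A/J level and 69.4% of its words in Tpm3 and other copies. Amd2 had 0.776 CPM in A/J and 27.6 CPM in the others, with 85.7% of its words in Amd1 and other copies. Ahcy, the enzyme that hydrolyses S-adenosylhomocysteine, rose by 2.16 on the log2 scale, with 77.0% of its words in copies, and lay with C57BL/6J, CAST/EiJ and PWK/PhJ. Ccl19, a chemokine that guides lymphocytes, had 0.233 CPM in A/J and 7.98 CPM in the others, with NOD/ShiLtJ at 22.3 CPM and NZO/HlLtJ at 21.8 CPM and 59.1% of its words in copies. Hba-a1, an alpha globin gene, had 0.969 CPM in A/J and 20.2 CPM in the others, and shares 67.5% of its words with Hba-a2.

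**Figure D2:**
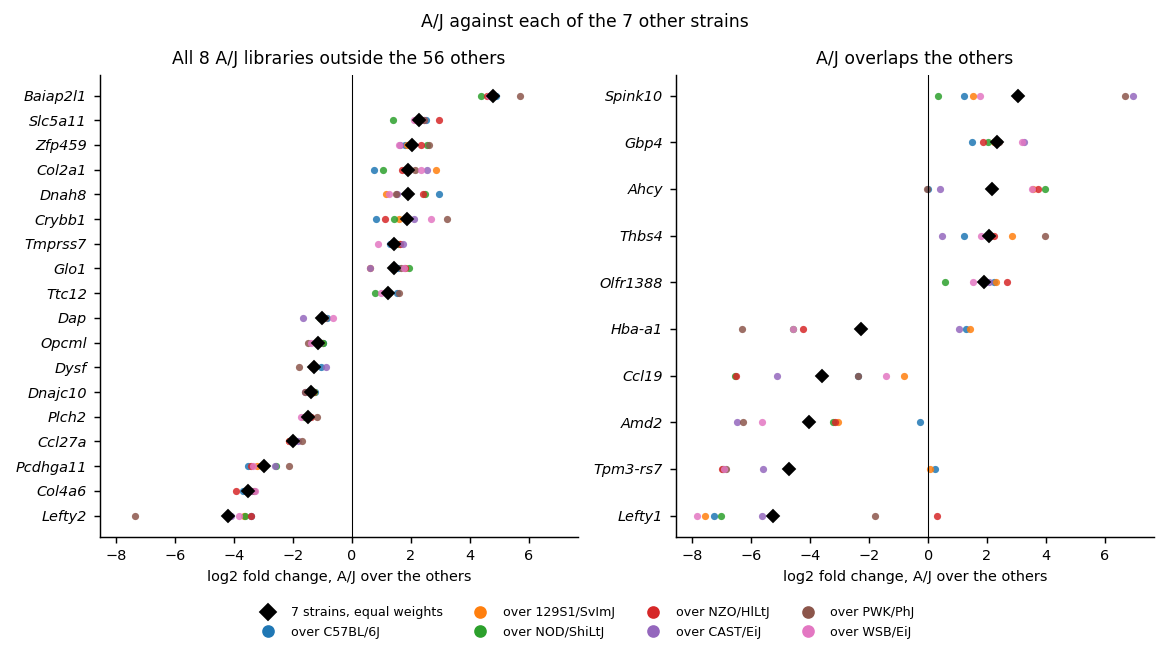
Log2 fold change of A/J over each other strain (coloured points) and over the equally weighted mean of all 7 (black diamonds), for genes with a gap between A/J and all other libraries on the left and for genes whose libraries overlap on the right. Every point of Baiap2l1 and Dnajc10 lies on 1 side of 0, which the choice of genes by a gap fixed beforehand. Tpm3-rs7, on the right, is near 0 over C57BL/6J and 129S1/SvImJ.

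Of genes known as background for inherited differences in A/J, 8 had enough counts to be tested. At any fold 4 passed, against 33.9% of all genes, and 3 of them passed the fold threshold, against 3.58% of all genes. Besides Dysf and Glo1, Tyrp1, an enzyme of pigment synthesis, rose, with 0.728 ± 0.222 CPM (SD, n = 8) in A/J and 0.357 ± 0.22 CPM (n = 56) in the others, adjusted p = 3.31e-06 in edgeR. Cdh23, a cadherin of inner ear hair cells whose variant is linked to hearing loss, had 2.89 CPM in A/J and 2.09 CPM in the others, a log2 fold change of 0.52. The 4 that did not pass were Hc, complement C5 (log2 fold change -0.53, adjusted p = 0.246 in edgeR), Cs, citrate synthase (-0.01, adjusted p = 0.805), Il3ra, an interleukin receptor chain (0.24, adjusted p = 0.108), and Naip5, a flagellin sensor (0.36, adjusted p = 0.104). Il3ra passed without CAST/EiJ and PWK/PhJ (0.36, adjusted p = 0.0208) and Naip5 without NOD/ShiLtJ (0.50, adjusted p = 0.0223). Hc was near the detection limit in all strains, at 0.198 CPM in A/J and 0.333 CPM in the others.

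The genes beside the leading genes were read for the same difference, taking the 5 tested genes on each side. None of the 10 neighbours of Baiap2l1 passed the 2-fold threshold, and their log2 fold changes lay between -0.34 and 0.63. Bri3, which overlaps Baiap2l1 on the opposite strand, had 24.5 ± 5.84 CPM in A/J and 24.1 ± 2.82 CPM in the others, a log2 fold change of 0.02. Likewise 0 of 10 neighbours passed for Dnajc10 (between -0.21 and 0.62), Opcml (-0.43 and 0.44), Thbs4 (-0.76 and 0.21) and Ttc12 (-0.53 and 0.68). It was also 0 of 10 for Slc5a11, Zfp459, Crybb1, Dap, Pcdhga11, Spink10, Tpm3-rs7, Amd2 and Ahcy. Of 10 neighbours 1 passed for each of Plch2, Dysf, Col2a1, Col4a6, Tmprss7 and Gbp4. For Olfr1388 and Hba-a1 2 of 10 passed, and for Ccl19 5 of 10, against 3.58% of all genes tested. The strand used in counting is not given in the sources used here, so that reads of genes on opposite strands that overlap cannot be told apart.

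Beside Glo1 3 of 10 neighbours passed, and all of them rose. They were Dnah8 and the non-coding genes AC165951.5 and AC165951.1. Btbd9, a BTB domain gene of the same stretch, had 216 ± 18.0 CPM (SD, n = 8) in A/J and 152 ± 19.5 CPM (n = 56) in the others, a log2 fold change of 0.51 with an adjusted p of 6.94e-17 in edgeR. Glp1r, the receptor of glucagon-like peptide 1 in the same stretch, had a log2 fold change of 0.46 with an adjusted p of 0.0614. It passed in a refit without A/J male 2 (0.59, adjusted p = 0.0175 in edgeR). Refits without 1 library, here and elsewhere, filtered the genes anew and left out an estimate of the spread. Their adjusted p is therefore not strictly comparable with that of the main fit. Of the 4 genes listed for this segment, 3 passed at any fold, and all 3 were higher in A/J. Glo1 and Dnah8 are among the 3 and were already picked from these data for their gap. The count is therefore not comparable with the share of all genes, and beyond that pair Btbd9 passed and Glp1r did not.

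Beside Lefty1 2 of 10 neighbours passed, Lefty2 and the antisense gene H3f3aos, which had 0.142 ± 0.0901 CPM in A/J and 0.89 ± 0.469 CPM in the others. Tmem63a, an ion channel gene nearby, was higher in A/J by 0.63 on the log2 scale. Beside Ccl27a 3 of 10 neighbours passed, among them Fam205a4 (0.054 CPM in A/J and 1.82 CPM in the others) and Gm3892, whereas its copy Gm20878 was higher in A/J by 0.80 on the log2 scale. The log2 fold change of Fam205a4 was -4.86, and -4.43 without PWK/PhJ female 2, where the adjusted p was 1. On chromosome 4 a separate run of 3 adjacent genes rose together, namely Alad, an enzyme of haem synthesis (log2 fold change 1.14), Hdhd3 (1.03) and Bspry (1.19). Without CAST/EiJ and PWK/PhJ in the mean of the others, Alad was at 0.98 and Hdhd3 at 0.93. Hdhd3 was at 0.99 without A/J male 2, and Bspry was at 0.92 without CAST/EiJ and at 0.95 without C57BL/6J, so that none of the 3 calls held under every alternative set of strains tried.

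**Figure D3:**
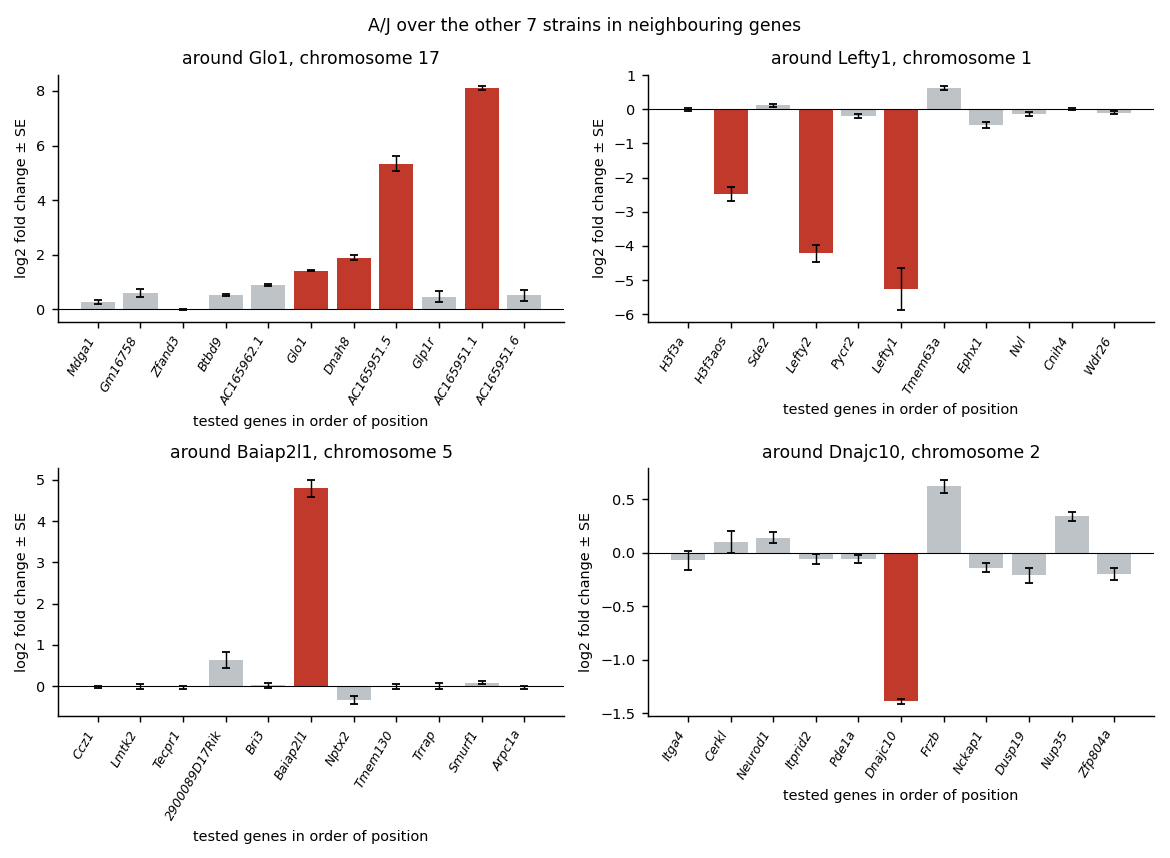
Log2 fold change ± SE of A/J over the other strains for Glo1, Lefty1, Baiap2l1 and Dnajc10 and the 5 tested genes on each side of them, in gene order; red bars passed the adjusted p and 2-fold thresholds. Baiap2l1 and Dnajc10 are the lone red bars of their panels, and 3 of the 10 neighbours of Glo1 are red.

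Of the clustered protocadherins, adhesion proteins that give neurons a surface identity, 57 were tested, and 2 rose and 3 fell past the 2-fold threshold, against 2.17% and 1.42% of all genes. At any fold 16 were higher and 14 lower, against 19.1% and 14.7% of all genes, with a median log2 fold change of 0.04. Pcdhga4 had 42.5 ± 10 CPM (SD, n = 8) in A/J and 18.9 ± 4.88 CPM (n = 56) in the others, and Pcdha12 had 22.1 ± 2.84 CPM in A/J and 13.3 ± 7.2 CPM in the others. Besides Pcdhga11, those that fell were Pcdha1, at 1.63 ± 0.613 CPM in A/J and 8.68 ± 9.46 CPM in the others, and Pcdhgb2, at 8.84 ± 1.85 CPM in A/J and 18.0 ± 2.85 CPM in the others. Below the fold threshold, Pcdhb17 (log2 fold change 0.73), Pcdhb14 (0.98) and Pcdhb9 (0.62) were higher. A/J male 2 had the lowest summed level of the list, 927 CPM, against 1060 to 1190 CPM in the other A/J libraries, and without it 4 rose and 2 fell past the threshold. Pcdhgb2 was then at -0.92, and at -0.99 without A/J female 3. Without CAST/EiJ and PWK/PhJ, Pcdha12 was at 0.46 and Pcdha1 at -0.89.

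The families of Plch2, Opcml, Dnajc10, Glo1 and Dysf were read beside 3.58% of all genes past the fold threshold. Each family holds a gene already picked from these data for its gap, so that 1 pass per family was fixed beforehand. Only the other members can be set beside that share, and none of them passed the fold threshold. Of 17 phospholipase C genes 1, Plch2, passed the fold threshold, and its closest relative Plch1 was higher by 0.39 on the log2 scale. Of 5 IgLON genes Opcml passed the threshold, and Negr1 was lower (log2 fold change -0.15). Of 34 genes of folding and stress in the endoplasmic reticulum 1, Dnajc10, passed it, with a median of 0.06. Of 10 genes that handle methylglyoxal 1, Glo1, passed it, and of 4 ferlin genes Dysf. At any fold all 4 ferlin genes passed, Dysf among them, against 33.9% of all genes. Fer1l5 (log2 fold change -0.23) and Myof (-0.30) were lower and Otof, the ferlin of inner hair cells, was higher (0.47). Myof and Fer1l5 did not pass without A/J male 2 (adjusted p = 0.19 and 0.071 in edgeR), nor Myof without A/J female 3 (adjusted p = 0.0852). Of 31 glutathione genes none passed the fold threshold, while 8 were higher and 4 lower at any fold, 38.7% against 33.9% of all genes. Gstm7 had 26.0 ± 2.32 CPM in A/J and 62.0 ± 50.6 CPM in the others. Gstm6 was higher by 0.76 and Gsta4 by 0.55 on the log2 scale.

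Immune genes split in both directions. Of 28 chemokine and receptor genes tested 3 rose and 3 fell past the fold threshold, against 2.17% and 1.42% of all genes. Ccr6, a receptor of B and T cells, had 2.09 ± 0.67 CPM in A/J and 0.797 ± 0.961 CPM in the others. Ccl28, a mucosal chemokine, had 3.38 ± 1.89 CPM in A/J and 2.39 ± 3.6 CPM in the others. Its log2 fold change of 2.16 averages log levels by strain and exceeds the ratio of these means. Cxcl5, a neutrophil chemokine, had 0.963 ± 0.572 CPM in A/J and 0.494 ± 0.533 CPM in the others. Ccl9 fell beside Ccl27a and Ccl19, with 0.604 ± 0.442 CPM in A/J and 2.35 ± 2.4 CPM in the others, and was at -0.98 without A/J male 2.

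Of 24 complement genes 1 rose and 1 fell past the fold threshold, against 2.17% and 1.42% of all genes, and at any fold 6 were higher and 8 lower, against 19.1% and 14.7%. Masp2, a protease of the lectin pathway, had 1.94 to 3.62 CPM in A/J, against 0 to 2.56 CPM in the others, a log2 fold change of 2.05 ± 0.14 (SE). C4a, which shares 35.2% of its words with C4b, had 1.11 ± 0.436 CPM in A/J and 3.23 ± 2.07 CPM in the others. C1qb, a subunit of the classical pathway's first component made by microglia, had 20.3 ± 3.05 CPM in A/J and 27.3 ± 6.08 CPM in the others, a log2 fold change of -0.40 that is below the fold threshold. A/J male 2 had 27.7 CPM of C1qb, the highest A/J value.

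Of 21 genes of MHC class I and peptide loading, 2 rose and 1 fell past the fold threshold, against 2.17% and 1.42% of all genes. At any fold 9 were higher and 5 lower, against 19.1% and 14.7%. H2-Q7 had 1.23 ± 0.427 CPM in A/J and 0.605 ± 0.452 CPM in the others, and H2-Q6 0.812 ± 0.679 CPM in A/J and 0.473 ± 0.457 CPM in the others. H2-Q2 had 0.016 ± 0.0222 CPM in A/J and 0.281 ± 0.206 CPM in the others, which is near the detection limit. Psmb9, an immunoproteasome subunit, and Tap2, a peptide transporter, were higher by 0.96 and 0.40 on the log2 scale. Class II had 1 of 11 members past the threshold, H2-Ob, which had 1.8 ± 0.335 CPM in A/J and 0.634 ± 0.522 CPM in the others, while H2-DMb1 was lower (log2 fold change -0.81). MHC haplotypes differ in sequence between inbred strains, and H2-Q7 and H2-Q6 share words with other class I genes.

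Of 29 interferon-stimulated genes 2 rose and 2 fell past the fold threshold, against 2.17% and 1.42% of all genes. At any fold 6 were higher and 5 lower, 37.9% of the list against 33.9% of all genes, with a median log2 fold change of -0.05. Ifi44 had 0.841 ± 0.318 CPM in A/J and 0.437 ± 0.256 CPM in the others, and Iigp1, a GTPase directed at parasite vacuoles, 1.33 ± 0.53 CPM in A/J and 1.07 ± 0.727 CPM in the others. Xaf1 had 2.04 ± 0.49 CPM in A/J and 5.06 ± 3.66 CPM in the others, and Ifit3 1.82 ± 0.476 CPM in A/J and 4.8 ± 2.94 CPM in the others, with 51.2% of its words in Ifit3b. Stat2, a signal transducer of interferon, was higher by 0.33 on the log2 scale. Without CAST/EiJ and PWK/PhJ in the mean of the others, calls ended for Iigp1 (0.14, adjusted p = 0.56), Ifi44 (0.71), Xaf1 (-0.86), H2-Q6 (0.64) and C4a (-0.76). With WSB/EiJ left out as well, Cxcl5 was at 0.69 and H2-Q7 at 0.95, and Ifit3 was at -0.91 when C57BL/6J alone was left out. Of 13 genes of the NAIP inflammasome none passed the fold threshold.

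Few neuronal receptor and channel genes passed the fold threshold, which 3.58% of all genes passed. Of 24 glutamate receptor genes none passed it, and at any fold 1 was higher and 6 lower, against 19.1% and 14.7% of all genes. The one that was higher was Grm4, a presynaptic metabotropic receptor, with 16.3 ± 1.88 CPM (SD, n = 8) in A/J and 12.1 ± 2.34 CPM (n = 56) in the others. Of 36 sodium and calcium channel genes none passed it, with 3 higher and 13 lower at any fold, 44.4% of the list against 33.9% of all genes. Without A/J male 2, which had the lowest summed level at 3370 CPM, 4 were higher and 6 lower. Cacna2d4, a calcium channel subunit best known in retina, was higher by 0.83 on the log2 scale. Of 84 potassium channel genes 2 fell past the fold threshold, Kcnj14, with 0.92 ± 0.241 CPM in A/J and 2.24 ± 0.857 CPM in the others, and Kcnv2, which was near 0 in all strains. At any fold 8 potassium channel genes were higher and 21 lower, 34.5% of the list against 33.9% of all genes. Kcns3 was lower (log2 fold change -0.38).

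Of 16 GABA-A receptor genes 2, Gabre and Gabrq, passed the fold threshold as higher, and both rest on single libraries. Gabre had 4.97 CPM in A/J female 3, and its log2 fold change of 1.23 became 0.64 (adjusted p = 0.163 in edgeR) without it, while that of Gabrq, 1.09, became 0.42 (adjusted p = 0.388). Without A/J male 4 they were at 0.65 (adjusted p = 0.278) and 0.70 (adjusted p = 0.186). Gabrd, the extrasynaptic delta subunit of dentate granule cells, had 23.3 ± 3.74 CPM in A/J and 18.7 ± 3.85 CPM in the others. Gabra5, the hippocampal alpha 5 subunit, had 182 ± 10.5 CPM in A/J and 204 ± 22.8 CPM in the others, a log2 fold change of -0.15. Of the opioid peptides, Penk, the enkephalin precursor, had 17.8 ± 4.52 CPM in A/J and 36.8 ± 21.6 CPM in the others, and Pdyn, the dynorphin precursor, had 17.2 ± 1.44 CPM in A/J and 11.5 ± 4.06 CPM in the others. These peptide genes moved in opposite directions, by -0.88 and 0.65 on the log2 scale, below the fold threshold.

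No gene of the mitochondrial genome or of cytosolic ribosomal proteins passed the fold threshold. Of 13 protein-coding mitochondrial genes 10 fell at any fold, against 14.7% of all genes, with a median log2 fold change of -0.21, and their summed level was 43000 to 49300 CPM in A/J, against 35600 to 86600 CPM with a median of 54800 in the others. The A/J mean of 45900 CPM lay between that of PWK/PhJ, 38000, and that of C57BL/6J, 64900. Among them mt-Co3 was lower (log2 fold change -0.39), as were mt-Cytb (-0.27) and mt-Nd4 (-0.30), where mt-Co3 and mt-Nd4 share words with nuclear copies. Of 77 cytosolic ribosomal protein genes 12 were higher and 3 lower at any fold, 19.5% of the list against 33.9% of all genes. A/J male 2 had a summed level of 16900 CPM, against 10700 to 11800 CPM in the other A/J libraries, and without it 4 were higher and 6 lower. Rps14 was lower (log2 fold change -0.38). At any fold 4 further lists passed less often than the 33.9% of all genes. Of 18 immediate early genes 1 was higher and 2 lower (16.7%), and of 15 glucocorticoid response genes 1 was higher (6.67%). Of 12 serotonin receptor genes 2 were lower (16.7%). Of 19 circadian clock genes 2 were higher and 3 lower (26.3%), among them Rorb at -0.46.

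Marker genes of cell types showed small shifts, and in bulk tissue fewer cells of a type and less RNA per cell cannot be told apart. All 20 microglia markers passed at any fold, 17 higher and 3 lower, with a median log2 fold change of 0.27, against 19.1% and 14.7% of all genes. None passed the fold threshold. Mpeg1, a pore-forming macrophage protein, had 30.6 ± 3.33 CPM (SD, n = 8) in A/J and 17.8 ± 8.33 CPM (n = 56) in the others. Laptm5, a lysosomal membrane protein, had 53.9 ± 3.74 CPM in A/J and 38.0 ± 8.43 CPM in the others. Csf1r, the receptor that microglia need to survive, had 126 ± 9.9 CPM in A/J and 96.1 ± 11.1 CPM in the others. Trem2 (log2 fold change 0.60), Fcrls (0.60), P2ry12 (0.34) and Cx3cr1 (0.30) were also higher. Olfml3, Selplg and Tyrobp were lower (log2 fold changes -0.70, -0.51 and -0.32), so that the list did not move as a block.

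The summed level of the microglia markers was 666 to 732 CPM in the 8 A/J libraries, against 448 to 743 CPM with a median of 594 in the others. By mean log2 level A/J (4.49) lay between C57BL/6J (4.57) and NOD/ShiLtJ (4.46), and 129S1/SvImJ was the lowest strain (3.93). Without A/J male 2 the counts were again 17 and 3, and without CAST/EiJ, PWK/PhJ and WSB/EiJ they were 14 and 3.

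**Figure D4:**
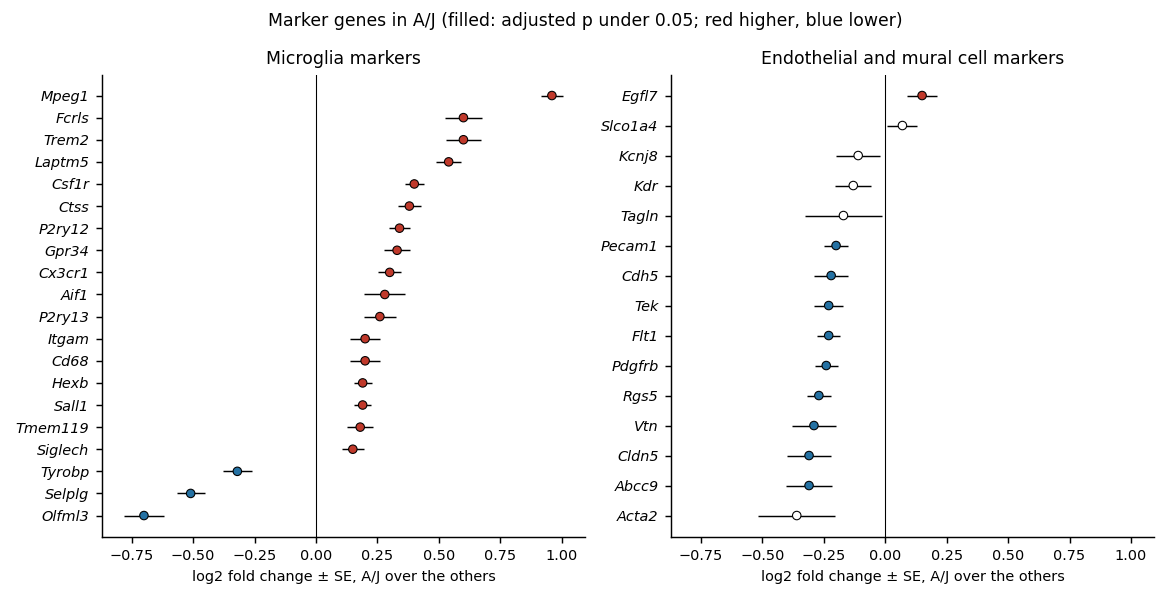
Log2 fold change ± SE of A/J over the other strains for each microglia marker (left) and each endothelial or mural marker (right); filled points passed at an adjusted p under 0.05, red higher and blue lower. Of the microglia markers 17 are red and 3 blue, and of the vascular markers 1 is red and 9 are blue.

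Vascular markers lay on the other side. Of 15 endothelial and mural markers 9 were lower and 1 higher at any fold, against 14.7% and 19.1% of all genes, with a median log2 fold change of -0.23 and a summed level of 323 to 381 CPM in A/J, against 317 to 498 CPM in the others. Rgs5 and Pdgfrb, genes of pericytes, were lower (log2 fold changes -0.27 and -0.24), as were Flt1 and Cldn5, genes of endothelial cells (-0.23 and -0.31). Egfl7 was the one that was higher, by 0.15, and did not pass without A/J male 2 (0.07, adjusted p = 0.371 in edgeR), when 7 were lower and none higher. Without A/J female 3 the adjusted p of Egfl7 was 0.0766. Against the same shares of all genes, 6 of 12 astrocyte markers were lower and none higher, among them Gfap, the intermediate filament of astrocytes, with 325 ± 25.9 CPM in A/J and 394 ± 93.6 CPM in the others, and Ntsr2, at -0.26. Without CAST/EiJ and PWK/PhJ, 3 of the astrocyte markers were lower and 1 higher. Of 12 oligodendrocyte markers 6 were higher and 1 lower, against 19.1% and 14.7% of all genes, with Mobp, a myelin protein, at 707 ± 117 CPM in A/J and 501 ± 152 CPM in the others, and Ugt8a higher by 0.50. Without CAST/EiJ and PWK/PhJ, 2 were higher and 1 lower.

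Of 11 markers of CA1 pyramidal neurons 8 were lower and none higher at any fold, against 14.7% and 19.1% of all genes, with a median of -0.23, and their summed level was 899 to 1100 CPM in A/J, against a median of 1220 CPM and a highest value of 1590 CPM in the others. The lowest of the others lay inside the A/J range. The list includes Lefty1, and NZO/HlLtJ had a like mean log2 level (5.39) to A/J (5.36). Fibcd1, a chitin-binding receptor of CA1, had 156 ± 8.85 CPM in A/J and 184 ± 22.9 CPM in the others, and Mpped1 had 215 ± 26.4 CPM in A/J and 252 ± 27.9 CPM in the others. Of 12 dentate granule markers Dsp, desmoplakin, rose past the fold threshold, with 69.8 ± 13.7 CPM in A/J and 39.0 ± 22.6 CPM in the others. CAST/EiJ (2.65 CPM) and PWK/PhJ (11.8 CPM) were far below the rest, and without these strains the log2 fold change of Dsp was 0.45 in place of 1.36. Of 12 CA2 and CA3 markers Iyd, an iodotyrosine deiodinase, fell past the threshold, at 0.866 ± 0.181 CPM in A/J and 2.34 ± 1.62 CPM in the others, and was below the threshold without C57BL/6J (-0.94), NOD/ShiLtJ (-0.87) or NZO/HlLtJ (-0.98).

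Of 14 interneuron markers none passed the fold threshold, and at any fold 2 were higher and 4 lower, against 19.1% and 14.7% of all genes. Npy, the neuropeptide Y gene, had 23.2 ± 3.76 CPM in A/J and 31.8 ± 8.39 CPM in the others, and Reln, which codes for reelin, had 40.2 ± 4.16 CPM in A/J and 51.7 ± 8.12 CPM in the others. Cck, the cholecystokinin gene, had 264 ± 65.3 CPM in A/J and 208 ± 42.7 CPM in the others. A/J male 2 had the highest A/J value of both Npy (31.7 CPM) and Cck (418 CPM). Markers of tissue next to the hippocampus were read as well. None of 12 choroid plexus markers passed, with a summed level of 167 to 4250 CPM over the A/J libraries. Of 11 thalamic markers 1 was lower at any fold, 9.09% against 33.9% of all genes. Of 10 striatal markers 1, Six3, rose past the fold threshold, against 2.17% of all genes. At any fold 2 striatal markers were higher and 2 lower, 40.0% against 33.9% of all genes. Drd2, the dopamine D2 receptor, had 5.65 ± 1.75 CPM in A/J and 3.6 ± 1.23 CPM in the others, and Six3, a homeobox gene, had 2.59 ± 2.24 CPM in A/J and 1.46 ± 1.29 CPM in the others. Those that were lower were Rgs9 (log2 fold change -0.30) and Penk (-0.88). The log2 fold change of Six3 was 1.04, adjusted p = 0.0463 in edgeR, and the call was lost in DESeq2 (adjusted p = 0.0739), without A/J male 4 (0.57, adjusted p = 0.395 in edgeR), without A/J female 3 (0.81, adjusted p = 0.174) and without many other single libraries.

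The A/J difference was also read in each sex. In A/J females 642 genes passed the fold threshold (3.69%) and in A/J males 597 (3.43%), with the females and the males of the other strains as their references. The difference between the sexes in the A/J effect was tested in the same fit, and 1 gene of 17382 (0.00575%) passed. This gene was Prune2, a BCH domain gene on chromosome 19. It had 63.0, 82.7, 72.4 and 67.4 CPM in the 4 A/J females and 51.2, 36.8, 52.1 and 47.8 CPM in the 4 A/J males. The lowest A/J female lay above the highest A/J male. In the other 14 groups the means ran between 71.8 and 159 CPM, and the females and males of a strain differed less. The A/J effect differed by 0.61 on the log2 scale between females and males, adjusted p = 4.24e-05 in edgeR, and within A/J the females were higher by 0.60. Prune2 was lower in A/J than in the others in both sexes together, at 59.2 ± 14.9 CPM (SD, n = 8) in A/J and 116 ± 31.3 CPM (n = 56) in the others.

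**Figure D5:**
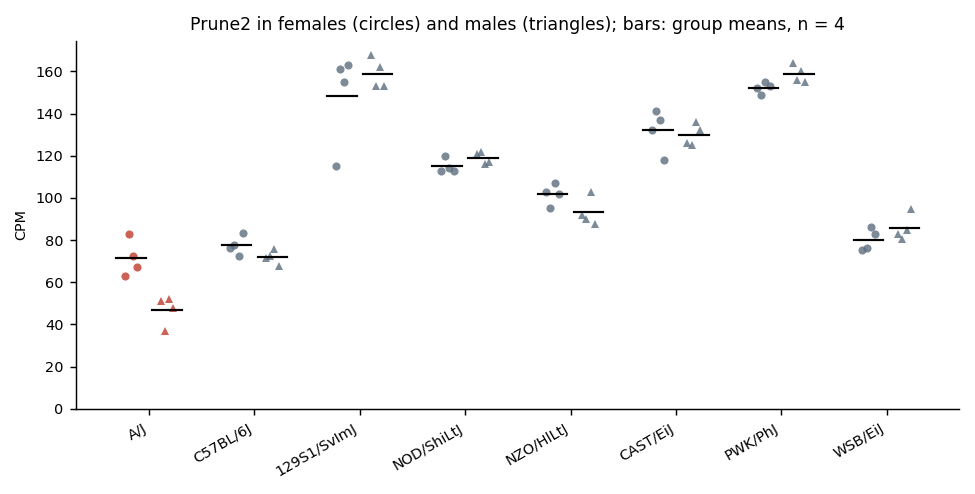
Prune2 level (TMM-scaled CPM) in every library, by strain with A/J on the left, with females as circles, males as triangles and group means (n = 4) as bars. The 4 A/J females lie between 63.0 and 82.7 CPM and the 4 A/J males between 36.8 and 52.1 CPM.

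Between A/J females and A/J males 16 genes differed (0.092%), 11 higher (0.0633%) and 5 lower (0.0288%) in females, and most were genes of the X and Y chromosomes that differ between the sexes in any mouse tissue. Avp and Oxt, the vasopressin and oxytocin genes of hypothalamic neurons, were among those higher, with adjusted p of 0.0338 and 0.0267 in edgeR. They rest on A/J female 3, which had 24.9 CPM of Avp and 29.8 CPM of Oxt. Without that library the log2 differences were -0.07 and -1.03. Both calls also ended without A/J male 1, 2 or 3, though A/J females were still higher.

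Of the 27 genes with a gap between A/J and all others, 9 have no official protein-coding name, and they were named after their values were seen. AC165951.1, an antisense gene of the Glo1 segment, had 57.6 to 72.5 CPM in A/J with a mean of 64.4 ± 5.21 (SD, n = 8). In 129S1/SvImJ it had 36.0 ± 1.68 CPM, and the means of the other 6 strains ran between 0.0645 and 0.145 CPM. AC165951.5 had 0.759 ± 0.225 CPM in A/J and 0.0453 ± 0.076 CPM in the others. Pcsk2os1, antisense to a prohormone convertase gene, rose by 1.44 on the log2 scale, and AW112010, a long non-coding RNA gene, by 1.59. Pcsk2os1 was at 0.82 without CAST/EiJ and PWK/PhJ.

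The genes of this kind that fell were Gm17167 (0.518 ± 0.28 CPM in A/J and 24 ± 18.9 CPM in the others), Gm3892 (1.4 ± 0.401 and 34.5 ± 20.3), Gm12394 (1.31 ± 0.343 and 11.4 ± 4.71), D030028A08Rik (1.01 ± 0.221 and 5.13 ± 1.83) and Gm4419 (1.28 ± 0.304 and 4.28 ± 1.1). All words of Gm3892 and 62.2% of those of Gm17167 occur in other genes, so that their counts are uncertain. Gm3892 and Gm12394 lie on chromosome 4 in the stretches that hold Ccl27a and Ccl19.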

How the data were processed

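The authors deposited raw counts per gene for the 64 libraries, with Ensembl gene IDs and whole-number values. Libraries were made with a TruSeq kit, per the labels' protocols, and the genome was GRCm39, per the submitters' processing notes. The table's own name gives Ensembl release 105. The aligner, the strand setting, the treatment of reads that match several genes, and whether all strains were aligned to 1 reference are not given in the sources used here, and reads that match the reference better in one strain can raise its counts.

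Gene names came from an annotation of build GRCm38 by Ensembl ID, which matched 32146 IDs (99.7%); the 81 unmatched IDs held 0.0382% of counts. Column names equal the start of a title for 50 libraries, and for 14 the title has 1 digit more. Genes were kept by edgeR's filterByExpr (minimum count 10, minimum total 15), scaled by TMM and fitted with a mean per strain and sex (16 groups), using edgeR 4.0.16 in R 4.3.3 (48 residual degrees of freedom). The quasi-likelihood F test was applied to contrasts of log levels with strains weighted equally, with Benjamini-Hochberg adjustment over all genes tested. The threshold was 0.05 with an absolute log2 fold change of at least 1, and with no fold minimum for tests between sexes. CPM are TMM-scaled. "Passed at any fold" means an adjusted p under 0.05. The script was tested on simulated counts. DESeq2 1.42.0 served as an alternative.

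Named genes are protein-coding genes with official symbols. The rule took those whose 8 A/J libraries all lay outside the other 56, then the 5 higher and the 5 lower with the largest fold among the rest with at least 5 CPM. It also took up to 4 members of each list by smallest adjusted p, all tested members of short lists, the genes known as variants in A/J, and the leading genes of the sex tests. The members and lists were chosen with earlier results of these data known. Nothing in the labels says that replicates are separate animals, so p-values measure the spread between these samples. Depth limits genes under about 1 CPM most.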

Additional observations from a re-analysis of the deposited data

Results flagged for a closer look

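In 29 of 139 checks of a gene's A/J values (20.9%) a library lay far from the other A/J libraries, where chance gives about 1 in 20, and the checks share libraries. A/J male 2 held 18 of the 29. It was above the other 7 A/J libraries in Alad (63.6 CPM), Bri3 (38.7 CPM), C1qb (27.7 CPM), Cck (418 CPM), Cldn5 (34.7 CPM), Crybb1 (7.24 CPM), Egfl7 (31.8 CPM) and Gsta4 (68.5 CPM). It was likewise above them in Il3ra (2.55 CPM), Npy (31.7 CPM), Ntsr2 (116 CPM), Rps14 (222 CPM), Selplg (23.5 CPM), Trem2 (18.3 CPM), Tyrobp (10.5 CPM) and mt-Co3 (5620 CPM). In Flt1 (33.3 CPM) and Mpeg1 (23.6 CPM) it was below them.

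A/J female 3 was far above the other A/J libraries in Gabre (4.97 CPM) and Gabrq (11.3 CPM) and below them in Amd2 (0.191 CPM). Among the 4 A/J females it was far above the other 3 in Avp (24.9 CPM, against 0.0436 to 0.144 CPM) and Oxt (29.8 CPM, against 0.0436 to 0.0958 CPM). A/J male 4 stood high in Avp among the A/J males (0.368 CPM), in Col4a6 (0.414 CPM) and in Ttc12 (8.05 CPM). A/J female 1 stood high in AW112010 (1.87 CPM) and Gbp4 (11.8 CPM), and A/J male 1 low in Olfml3 (7.36 CPM).

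Prune2 was the gene whose A/J difference itself differed between females and males, by 0.61 on the log2 scale, adjusted p = 4.24e-05 in edgeR.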

How the results depend on the processing

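The number of genes past the thresholds moved with the filter and the fold minimum. Without a count filter 1138 genes passed (825 higher), and with a mean of at least 50 counts 154 (83 higher, 71 lower), with 162 in females and 154 in males. With a log2 minimum of 2, 164 passed (89 higher, 75 lower), with 163 in females and 181 in males, and by strain 236 for C57BL/6J, 247 for 129S1/SvImJ, 253 for NOD/ShiLtJ, 249 for NZO/HlLtJ, 782 for CAST/EiJ, 784 for PWK/PhJ and 366 for WSB/EiJ. With no fold minimum 5889 passed (3327 higher, 2562 lower), with 3967 in females and 4409 in males, and by strain, in the same order, 4789, 3884, 4831, 4702, 9036, 9188 and 5497. Without CAST/EiJ and PWK/PhJ 250 genes rose, and without WSB/EiJ as well 224. DESeq2 called 2 genes for the difference by sex. Without the 3 libraries A/J male 2, A/J female 3 and 129S1/SvImJ female 1, chosen after seeing the data, 9 genes differed between A/J females and males. Leaving out 1 library at a time gave 639 to 674 genes in all, 368 to 413 higher and 247 to 273 lower. In these refits 599 to 650 genes passed in females and 528 to 626 in males. For the difference by sex 1 to 3 passed, and 10 to 17 between A/J females and males, the last lowest without A/J male 2. The count filter was applied anew in each of these refits, and 1 gene-by-gene estimate of the spread was left out. All of their totals lay above the 623 genes of the main fit. A change in such a refit, as in the adjusted p of Lefty1 and Fam205a4, thus cannot be put down to the removed library alone.

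Signs reversed for 5 genes. Egfl7 was at -0.06 without CAST/EiJ and PWK/PhJ and at -0.07 without WSB/EiJ as well. Cs, which never passed, was at 0.01 without those 3 strains, at 0 without the 3 libraries, and between -0.03 and 0.01 without 1 library at a time. Bri3, which never passed, was at -0.08 without the 3 libraries and between -0.1 (without A/J male 2) and 0.07 without 1 library at a time. Without 1 library at a time the female minus male difference was between -0.07 and 8.2 for Avp and between -1.03 and 7.15 for Oxt, both lowest without A/J female 3, and without the 3 libraries it was -0.48 and -1.22. The cause of these changes was not tested. No paired analysis was possible because the labels give no replicate numbers that groups share. Genes under about 1 CPM, and genes with near copies, are the least certain.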

Other observations

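The share of tested genes that passed the fold threshold in A/J was counted by chromosome. It was 5.23% on chromosome 14 and 5.0% on chromosome 4, the highest, against 3.58% of all genes tested. It was 2.08% on chromosome 16, the lowest autosome, and 2.43% on the X chromosome. On chromosome 17, which holds Glo1 and the MHC, 32 of 854 genes tested rose and 7 fell, 4.57% in all. Chromosomes 3, 12 and 13 had higher shares than chromosome 17 too, at 4.59%, 4.69% and 4.8%. On chromosome 11 a run of 4 adjacent genes rose, namely 9930111J21Rik1, Tgtp1, 9930111J21Rik2 and Tgtp2. Tgtp1, a GTPase induced by interferon, had 1.6 ± 1.19 CPM (SD, n = 8) in A/J and 0.977 ± 0.886 CPM (n = 56) in the others. Its call rests on log levels averaged by strain and not on the ratio of these means. Sequence shared between the genes of this run was not checked, so that they may not be separate observations.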
